A study of Homo sapiens with 4 samples.

Results

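Interferon-stimulated genes are the genes that type I and type III interferons switch on, and 40 of them were followed in A673 cells after knockdown of FAT4. They were taken by gene symbol from the deposited count files, which list 23228 genes, and all 40 symbols were found. Sensors of viral RNA and antigen presentation genes were left out of the set. A673 is an Ewing sarcoma cell line that carries the EWSR1-FLI1 fusion, and FAT4 encodes a giant atypical cadherin. The cells had received an siRNA against FAT4 or a control siRNA described as scrambled, and RNA was taken at 48 h and at 24 h after transfection with a cationic lipid reagent. There was 1 library for each siRNA and time, 4 in all, and replicate cultures stand behind none of the values. All 4 come from 1 cell line, the sources used here give no siRNA sequences, and no untransfected cells were analysed here. The study asked what depletion of FAT4 does to gene expression in these cells.

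Interferons bind receptors on the cell surface, and the receptor-bound kinases JAK1 and TYK2 then start signalling inside the cell. It ends on the complex ISGF3, which holds STAT2 and IRF9 and binds the interferon-stimulated response element (ISRE) in promoters. Most of the genes switched on in this way encode proteins that block a step of the viral life cycle, and many are also transcribed at a low level in cells that have seen no interferon.

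The ISRE is the sequence that ties these genes together, so the stretch that carries it is shown for 12 of them. The core was searched as GAAA, any 2 bases and GAAA again, or as TTTC, any 2 bases and TTTC where it lies on the other strand, in RefSeq promoters of GRCh38.p14 that run from 250 bases before to 50 bases after each gene's start. Promoters matched 32 of the 40 genes, and IRF7, IFIT2, OAS2, OASL, MX2, IFITM2, UBA7 and USP18 were not matched. Each line gives 30 bases around the core nearest to the start, on the gene's own strand, 5′ to 3′, with every core that lies whole within them in capitals. In ISG15 and BST2 the capitals hold 2 overlapping cores. The first 8 genes were lower with the FAT4 siRNA in the test described below, and the last 4 did not pass it.
IFI6: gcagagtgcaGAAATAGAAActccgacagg
MX1: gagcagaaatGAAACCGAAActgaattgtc
IFIT1: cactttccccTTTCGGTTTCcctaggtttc
SAMD9: tctgagaaatGAAACTGAAAccaaacctat
ISG20: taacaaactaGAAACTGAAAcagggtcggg
IFI44L: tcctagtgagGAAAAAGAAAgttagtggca
IFI44: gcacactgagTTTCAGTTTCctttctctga
ISG15: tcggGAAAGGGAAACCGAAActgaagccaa
BST2: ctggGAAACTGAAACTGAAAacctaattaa
DTX3L: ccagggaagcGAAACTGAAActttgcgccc
PARP14: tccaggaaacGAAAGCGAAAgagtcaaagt
IFIT5: atttcttaagTTTCAGTTTCtgagcgctcg

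These windows lie at chr1:27672266-27672295 on the minus strand for IFI6 and at chr21:41420559-41420588 on the plus strand for MX1. The IFIT1 window is chr10:89392510-89392539 (plus), that of SAMD9 is chr7:93118096-93118125 (minus) and that of ISG20 is chr15:88638937-88638966 (plus). On chromosome 1, the windows are 78620365 to 78620394 for IFI44L, 78649761 to 78649790 for IFI44 and 1013380 to 1013409 for ISG15, all on the plus strand. The last 4 are chr19:17405735-17405764 (minus) for BST2, chr3:122564322-122564351 (plus) for DTX3L, chr3:122680800-122680829 (plus) for PARP14 and chr10:89414554-89414583 (plus) for IFIT5. In 11 of the 12 promoters the core nearest to the start begins upstream of it, from 4 bases before it in IFIT5 to 136 bases before it in SAMD9. In MX1 it begins 11 bases after the start, inside the transcribed sequence. SAMD9, ISG20, BST2 and DTX3L hold the same letters in this nearest core, GAAACTGAAA, although the first 2 passed the test and the other two did not. IFI44, which passed, and IFIT5, which did not, hold the same core on the other strand, as TTTCAGTTTC.

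The ISRE core was present in 19 of the 32 matched promoters, 59.4%, against 996 of 27305 RefSeq promoters of the same length, 3.65%. Of the 19 promoters, 12 hold more than 1 core, up to 3 in IFIT5, IFI6 and HERC5. Of the 19 genes that hold it, 13 were lower with the FAT4 siRNA, with a median log2 fold change of -0.60. Among 12 tested genes without it, 5 were lower, with a median of -0.20. The GAS element, named for interferon gamma activation and searched as TTCNNNGAA, was in 8 of the 32 promoters, 25%, against 7.88% of all. For GAS the calls were split the other way, with 3 of 8 genes lower with it (median -0.25) and 15 of 23 without it (median -0.60). With a shorter spacing of the ISRE words, GAA, any 2 bases and GAA, 8 of 15 genes were lower with it and 10 of 16 without it. None of these splits was tested. A match describes these letters in this window and is no proof of a bound site.

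Counts assigned to genes totalled 15196813 to 15413960 in the FAT4 siRNA libraries and 19614913 to 22625833 in the control libraries. Levels are given as CPM, which are counts scaled by library size with the TMM method, and 3 counts, taken as the floor, equal 0.133 to 0.197 CPM. FAT4 itself had 941 and 1061 counts in FAT4 siRNA cells at 48 h and 24 h, against 2992 and 3678 counts in control cells at 48 h and 24 h. Its log2 fold change over both times was -1.25 (SE 0.0978, edgeR adjusted p = 8.646e-34). Of 14 Ewing sarcoma markers, 13 were detected in every library, among them FLI1, NR0B1, NKX2-2 and STEAP1, while CD99 was listed at 0 in all 4. Of the 10 immune markers, CD3E, CD3D and MS4A1 had 0 counts in every library and PTPRC had 1 to 5 counts. The immune markers summed to 13.5 and 13.9 CPM in FAT4 siRNA cells and to 10.5 and 18.4 CPM in control cells, nearly all of it from CD68.

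The 40 genes spanned a wide range of levels in these cells. Mean CPM over the 4 libraries ran from 0.0677 for MX2 to 398 for LGALS3BP, with 25 genes at 5 CPM or more, 15 under 5 and 8 under 1. The median of those tested was 10.5 CPM, against 30.1 CPM over all genes tested. Per kilobase of transcript, the highest levels were those of LGALS3BP at 165.5, IFITM3 at 85.5, ISG15 at 40.3, IFITM1 at 28.7 and IFI44 at 27.7 CPM per kilobase. MX2 had 1 or 2 counts per library and XAF1, which encodes an antagonist of the apoptosis inhibitor XIAP, had 3 or 4, so these 2 genes were not tested and 38 were.

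**Figure D1:**
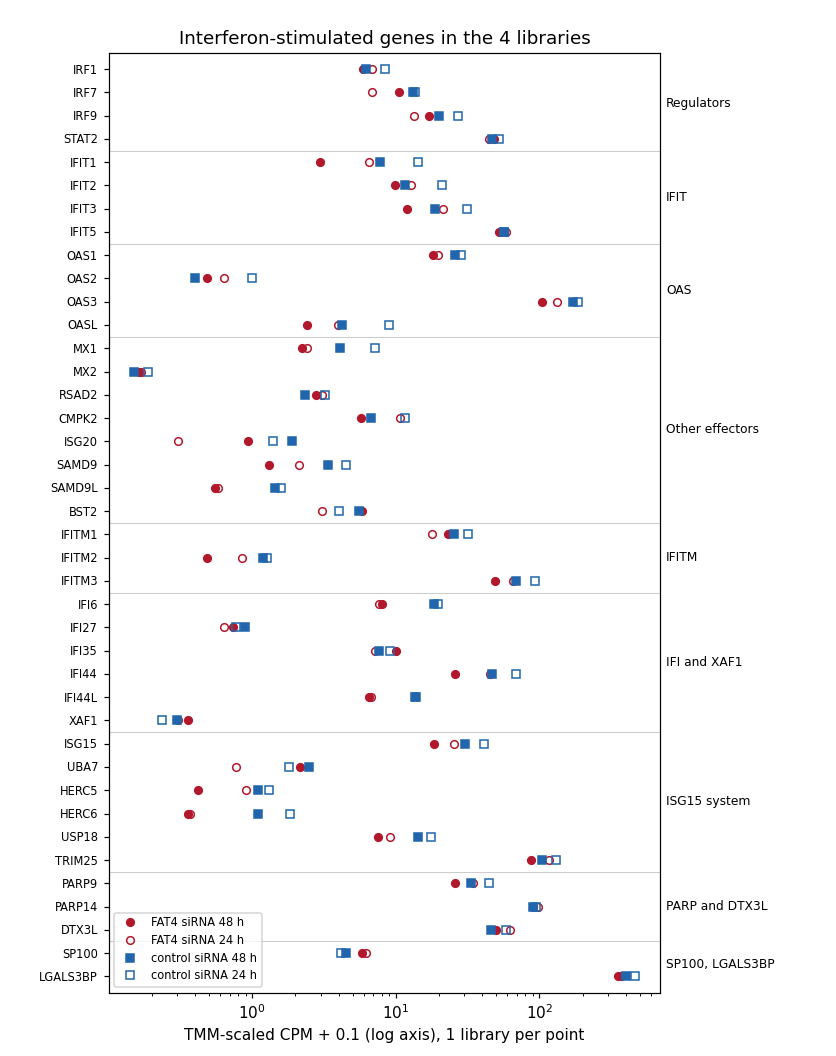
TMM-scaled CPM of the 40 interferon-stimulated genes in each of the 4 libraries (x axis, log scale, 0.1 added), grouped by role down the page, with FAT4 siRNA as circles, control siRNA as squares, 48 h filled and 24 h open. Each point is 1 library. The control 24 h library was the highest of the 4 for 28 genes tested, and how often it was so over all genes was not worked out.

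Most of the interferon-stimulated genes followed here were lower in FAT4 siRNA cells than in control cells. The 40 were chosen with earlier results of these data known, so their excess over all genes is not independent of that choice. A wider list of interferon-responsive genes, given further below, had a median log2 fold change of -0.08. Over both times, 22 of 38 passed the test on the lower side, where 14.1% of all genes tested did. None passed on the higher side, where 11.9% of all genes did. The median log2 fold change was -0.56, against -0.01 over all genes tested. Drops were spread over nearly every role: the interferon-induced regulators, the RNA-binding IFIT and OAS proteins, the membrane restriction factors and the ISG15 system each held genes that fell. In bulk RNA, fewer cells with a transcript and less of it per cell cannot be told apart.

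The test was edgeR's quasi-likelihood test with siRNA and time as additive terms, two-sided, with Benjamini-Hochberg adjustment over the 13712 genes tested and a threshold of 0.05. Without adjustment, 24 of the 38 had a p under 0.05 on the lower side and 1, SP100, on the higher side. Among the 22 that fell, 16 fell at least 1.5-fold, past which 5.49% of all genes lay, and 9 at least 2-fold, where 1.65% lay. Their median absolute log2 fold change was 0.716, against 0.504 for all genes called lower. The counts of 22, 16 and 9 each include HERC6 and SAMD9L. These genes reached the minimum count of the low count filter, 10, in control libraries alone, so their lower calls are not independent of that filter. The fit left 1 residual degree of freedom, and the p-values rest on 1 dispersion trend shared by all genes. With 1 library per siRNA and time, they weigh these libraries and not the spread between cultures. Fits that left out 1 library could keep siRNA as the only term, and 3 of the 38 then passed without the FAT4 siRNA library of 24 h (IFI6, IFIT1 and IFI44), 1 without that of 48 h (IFI6) and 0 without either control library. DESeq2 called 9 of the 28 genes to which it gave an adjusted p (5.75% of all genes), namely IFI6, IFIT1, IFIT3, IFI44, IFI44L, ISG15, USP18, OAS3 and IFITM3, and called none higher.

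**Figure D2:**
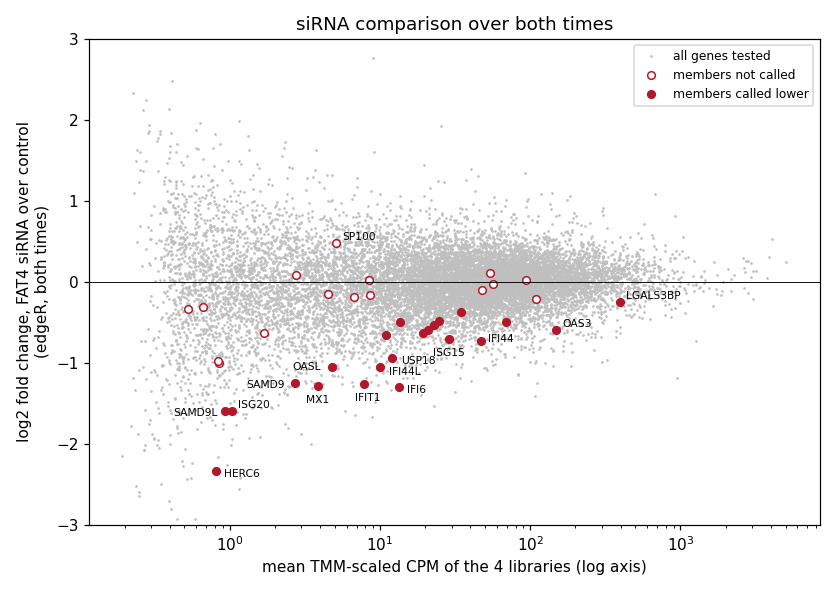
Log2 fold change of FAT4 siRNA over control from the edgeR fit (y axis) against the mean TMM-scaled CPM of the 4 libraries (x axis, log scale) for all genes tested in grey and the 38 interferon-stimulated genes in red, filled where called lower. The 22 filled points lie between -2.33 and -0.25, and 8 genes of all those tested lie beyond 3 in either direction and are not drawn.

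At each time by itself the same side prevailed. At 48 h the FAT4 siRNA library was below the control library for 31 of the 38 genes, with a median log2 ratio of -0.33 (CPM plus 1), and at 24 h for 34, with a median of -0.49. Over all genes tested these medians were 0.00 and -0.02. Of the 38 genes, 29 were lower at both times, 2 were higher at both and 7 had opposite signs. Among all 13712 genes tested, 6831 were lower at 48 h, 7283 at 24 h and 5173 at both times. The 95% counting interval of the plain CPM ratio lay below 1 for 23 genes at 48 h and 26 at 24 h, where 29.4% of all genes did at either time, and for 21 at both times, where 18.9% did. These exact intervals cover counting error only. In 22 of the 38 genes both FAT4 siRNA libraries lay below both control libraries, against 22.9% of all genes, and 19 of those 22 were among the genes that passed the test.

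**Figure D3:**
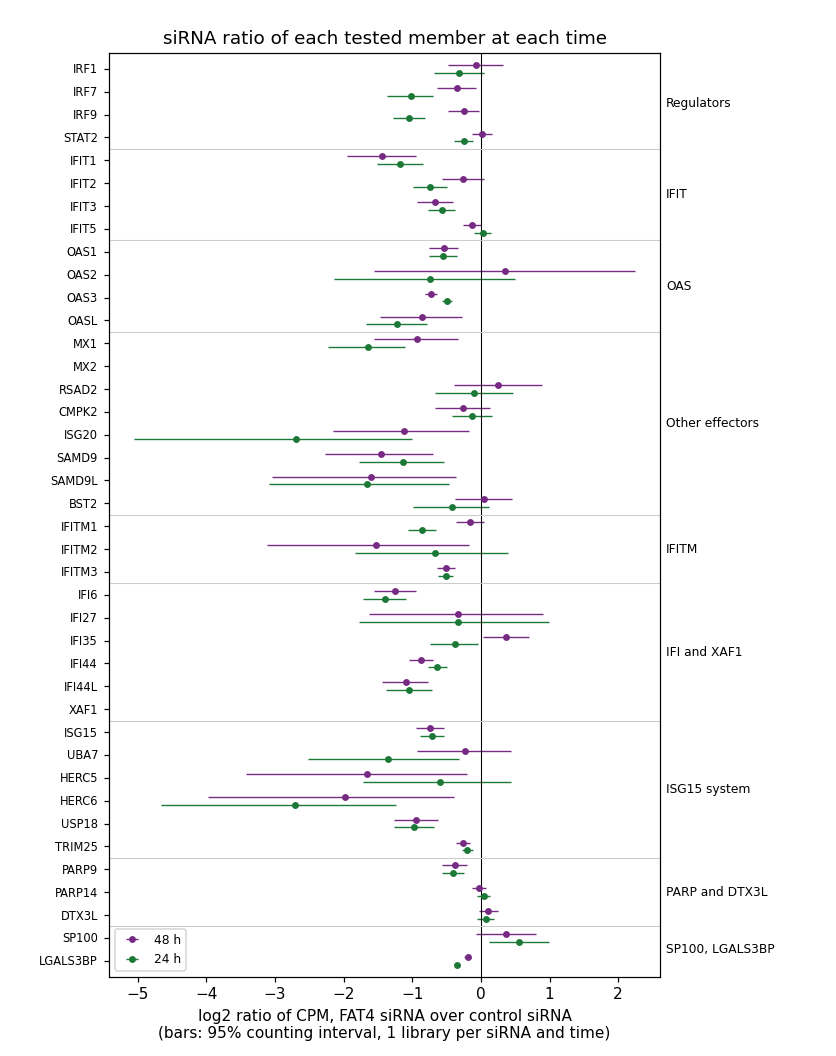
Ratio of CPM in FAT4 siRNA cells over control cells on a log2 scale (x axis) for each tested gene at 48 h (purple) and 24 h (green), with 95% counting intervals as bars. For 21 genes both bars lie below 0 on this scale, and for IFI35 they lie on opposite sides.

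Among the transcriptional regulators, IRF7 and IRF9 fell and IRF1 and STAT2 did not pass the test. IRF9, the DNA-binding subunit of ISGF3, had 17.0 and 13.3 CPM in FAT4 siRNA cells at 48 h and 24 h, against 20.0 and 27.1 CPM in control cells, with a log2 fold change of -0.63. IRF7, which drives transcription of interferon alpha genes, had 10.4 and 6.70 CPM in FAT4 siRNA cells and 13.2 and 13.4 CPM in control cells (log2 fold change -0.65). In both genes the 2 FAT4 siRNA libraries lay below the 2 control libraries, and the 24 h library was the lower of the FAT4 siRNA pair. STAT2, a subunit of ISGF3, had 48.0 and 44.2 CPM in FAT4 siRNA cells against 47.0 and 52.0 CPM in control cells, so its groups overlapped. IRF1, a regulator more responsive to interferon gamma, had 5.82 and 6.77 CPM in FAT4 siRNA cells against 6.06 and 8.28 CPM in control cells, again overlapping.

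Of the IFIT genes, whose products bind foreign RNA, IFIT1, IFIT2 and IFIT3 fell and IFIT5 did not pass the test. IFIT1, which recognises RNA whose cap lacks the methyl mark of host messages, had 2.88 and 6.43 CPM in FAT4 siRNA cells at 48 h and 24 h, against 7.71 and 14.3 CPM in control cells. Both FAT4 siRNA libraries were below both control libraries, and each siRNA had its lower value at 48 h. The log2 fold change was -1.26 (SE 0.201, edgeR adjusted p = 1.742e-08). IFIT3, which stabilises IFIT1 on RNA, had 11.96 and 21.3 CPM in FAT4 siRNA cells against 18.8 and 31.2 CPM in control cells, with a log2 fold change of -0.60. IFIT2 had 9.72 and 12.7 CPM in FAT4 siRNA cells against 11.5 and 20.9 CPM in control cells, with a log2 fold change of -0.50. For both, the FAT4 siRNA library of 24 h lay above the control library of 48 h, so the groups overlapped when the times were not matched. IFIT5, neighbour of IFIT1 on chromosome 10, was nearly level at 52.7 and 58.9 CPM in FAT4 siRNA cells and 57.0 and 56.9 CPM in control cells.

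The oligoadenylate synthetases, which make the second messenger that activates RNase L, showed 3 of 4 genes lower. OAS3 was the second most abundant of the 40 genes by CPM, at 104.6 and 134 CPM in FAT4 siRNA cells at 48 h and 24 h, against 171 and 186 CPM in control cells. The FAT4 siRNA libraries were clear of the control libraries, and the log2 fold change was -0.59 (SE 0.0939, edgeR adjusted p = 1.807e-08). OASL, a relative without synthetase activity that enhances signalling by RIG-I, had 2.30 and 3.86 CPM in FAT4 siRNA cells against 4.13 and 8.87 CPM in control cells. Its log2 fold change was -1.05 (SE 0.241, edgeR adjusted p = 0.000188). OAS1 had 18.0 and 19.6 CPM in FAT4 siRNA cells and 25.9 and 28.2 CPM in control cells, a log2 fold change of -0.53. OAS2 was counted 6 and 8 times in FAT4 siRNA cells and 6 and 20 times in control cells, too few reads to place it.

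Larger fold changes came from single antiviral effectors of low abundance. MX1, a dynamin-like GTPase that traps viral nucleoproteins, had 2.11 and 2.30 CPM in FAT4 siRNA cells at 48 h and 24 h, against 3.98 and 7.08 CPM in control cells (log2 fold change -1.29, SE 0.264, edgeR adjusted p = 2.069e-05). SAMD9, a restriction factor for poxviruses, had 1.22 and 2.03 CPM in FAT4 siRNA cells against 3.28 and 4.39 CPM in control cells (log2 fold change -1.25, SE 0.303, edgeR adjusted p = 0.000456). Its neighbour and paralogue SAMD9L was counted 7 times in each FAT4 siRNA library, against 27 and 33 times in the control libraries (log2 fold change -1.60, SE 0.495, edgeR adjusted p = 0.00778). All 3 genes kept both FAT4 siRNA libraries below both control libraries. ISG20, an RNA exonuclease, was counted 13 and 3 times in FAT4 siRNA cells against 36 and 29 times in control cells (log2 fold change -1.60, SE 0.474, edgeR adjusted p = 0.00537). The 24 h ratio of ISG20, 0.154, has a counting interval of 0.0300 to 0.497. DESeq2 gave SAMD9, SAMD9L and ISG20 no adjusted p.

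The other effectors did not pass the siRNA test. BST2, or tetherin, which holds budding virions on the cell surface, had 5.69 and 2.98 CPM in FAT4 siRNA cells at 48 h and 24 h, against 5.47 and 3.94 CPM in control cells. CMPK2, a mitochondrial nucleotide kinase, had 5.63 and 10.6 CPM in FAT4 siRNA cells against 6.66 and 11.4 CPM in control cells. RSAD2 (viperin), which makes a chain-terminating nucleotide and lies beside CMPK2 on chromosome 2, had 2.69 and 2.98 CPM in FAT4 siRNA cells against 2.24 and 3.14 CPM in control cells. In these 3 genes the values of both siRNAs overlapped.

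The IFITM proteins sit in membranes and block the fusion of entering viruses, and 2 of 3 genes fell. IFITM3 had 48.9 and 65.98 CPM in FAT4 siRNA cells at 48 h and 24 h, against 68.8 and 92.7 CPM in control cells, with a log2 fold change of -0.49. IFITM1 had 22.96 and 17.9 CPM in FAT4 siRNA cells against 25.4 and 32.0 CPM in control cells, with a log2 fold change of -0.49. Both genes were clear of overlap between the siRNAs. IFITM2, with 6 and 11 counts in FAT4 siRNA cells and 22 and 26 counts in control cells, missed the threshold. These 3 genes are close copies of each other, so how reads were shared among them is uncertain.

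IFI6, IFI44 and IFI44L fell, while IFI27 and IFI35 did not pass the test. IFI6, a small membrane protein that restricts flaviviruses, had 7.87 and 7.58 CPM in FAT4 siRNA cells at 48 h and 24 h, against 18.4 and 19.7 CPM in control cells. The pairs of libraries of each siRNA lay close together and far from the other pair, and the log2 fold change was -1.30 (SE 0.165, edgeR adjusted p = 3.554e-13), the smallest adjusted p among the 38. IFI44L had 6.46 and 6.63 CPM in FAT4 siRNA cells against 13.7 and 13.5 CPM in control cells (log2 fold change -1.05, SE 0.179, edgeR adjusted p = 1.839e-07). Its neighbour IFI44 had 25.9 and 45.2 CPM in FAT4 siRNA cells against 46.8 and 69.0 CPM in control cells (log2 fold change -0.73, SE 0.115, edgeR adjusted p = 1.42e-08). The 48 h and 24 h values of IFI44L were close within each siRNA, whereas IFI44 was lower at 48 h in both. IFI27, often among the most induced genes in interferon-treated tissue, was counted 10 and 8 times in FAT4 siRNA cells and 16 and 15 times in control cells.

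ISG15 is a ubiquitin-like protein that is joined to other proteins by the activating enzyme UBA7 and the ligase HERC5 and taken off again by USP18. ISG15 itself had 18.3 and 25.3 CPM in FAT4 siRNA cells at 48 h and 24 h, against 30.1 and 40.9 CPM in control cells (log2 fold change -0.71, SE 0.1304, edgeR adjusted p = 1.876e-06). USP18, which also binds the receptor chain IFNAR2 and damps signalling, had 7.48 and 9.07 CPM in FAT4 siRNA cells against 14.2 and 17.6 CPM in control cells (log2 fold change -0.94, SE 0.168, edgeR adjusted p = 7.526e-07). HERC6, a relative of HERC5 that serves as the main ISG15 ligase in mouse, was counted 4 times in each FAT4 siRNA library, against 20 and 39 times in the control libraries. The log2 fold change of HERC6 was -2.33 (SE 0.568, edgeR adjusted p = 0.000472), the lowest of the 38 and rank 21 from the bottom among all genes tested. DESeq2 gave HERC6 no adjusted p. In all 3 genes both FAT4 siRNA libraries were below both control libraries. USP18 has a near-identical copy in the genome, so its counts are uncertain.

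The enzymes that attach ISG15 did not pass the test. UBA7 was counted 32 and 10 times in FAT4 siRNA cells at 48 h and 24 h, against 48 and 38 times in control cells, and HERC5 5 and 12 times in FAT4 siRNA cells against 20 and 27 times in control cells. Both were lower with the FAT4 siRNA in each matched pair without passing the test. TRIM25, a ubiquitin ligase that acts on RIG-I and itself receives ISG15, had 87.5 and 116 CPM in FAT4 siRNA cells against 104 and 131 CPM in control cells, so its groups overlapped. Its log2 fold change was -0.21 (SE 0.0959, edgeR adjusted p = 0.0888).

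In the group of ADP-ribosylation genes only PARP9 passed the siRNA test. PARP9, which works as a complex with the ubiquitin ligase DTX3L, had 25.8 and 34.4 CPM in FAT4 siRNA cells at 48 h and 24 h, against 33.3 and 44.8 CPM in control cells (log2 fold change -0.37). DTX3L, its partner and its neighbour on chromosome 3, had 50.1 and 62.7 CPM in FAT4 siRNA cells against 46.1 and 58.8 CPM in control cells. So 1 of the pair was lower in FAT4 siRNA cells at both times and the other was slightly above its control at both. The counting intervals of the DTX3L ratio spanned 1 at 48 h (0.977 to 1.185) and at 24 h (0.965 to 1.144). PARP14, a mono-ADP-ribosyltransferase, was level at 89.8 and 98.5 CPM in FAT4 siRNA cells and 90.2 and 94.2 CPM in control cells (log2 fold change 0.03, SE 0.0974, edgeR adjusted p = 0.863).

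LGALS3BP, a secreted glycoprotein that binds galectins, held 30.7% of the summed CPM of the 40 genes. It had 354 and 372 CPM in FAT4 siRNA cells at 48 h and 24 h, against 400.2 and 467 CPM in control cells. The libraries did not overlap between the siRNAs, and the log2 fold change was -0.25 (SE 0.0887, edgeR adjusted p = 0.0209). SP100, a scaffold of nuclear bodies, had 5.75 and 6.09 CPM in FAT4 siRNA cells against 4.42 and 4.08 CPM in control cells. It was the 1 gene of the 38 with an unadjusted p under 0.05 on the higher side (log2 fold change 0.48, edgeR adjusted p = 0.102).

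Several of the 40 genes lie side by side in the genome. By the order of genes in the RefSeq table, 22 of them fell into 10 runs of adjacent genes, among them IFI44L with IFI44, SAMD9 with SAMD9L and MX2 with MX1. Neighbours did not always share a call. Both genes fell in the runs of IFI44L with IFI44, SAMD9 with SAMD9L and IFIT2 with IFIT3. 1 gene of the pair fell in the runs of HERC6 with HERC5, IFIT1 with IFIT5 and PARP9 with DTX3L, and neither did in that of CMPK2 with RSAD2. In the runs of 3, OAS1 and OAS3 fell beside OAS2, and IFITM1 and IFITM3 fell beside IFITM2.

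With time, more of the interferon-stimulated genes were lower than higher at 48 h relative to 24 h. Over both siRNAs, 12 of the 38 passed the test on the lower side, where 12.8% of all genes did, and 1, BST2, on the higher side, where 13.8% did. The median log2 fold change was -0.31, against 0.01 over all genes tested. All 3 IFIT genes that fell with the FAT4 siRNA also fell with time. Of the 12 genes lower at 48 h, 9 were also lower with the FAT4 siRNA, and CMPK2, TRIM25 and DTX3L were lower with time alone. DESeq2 called 5 lower and none higher, and it called 1176 of the 13712 genes in either direction. Without the control library of 48 h 4 genes passed, without any other library 0 did, and without the control library of 24 h the median log2 fold change was 0.03.

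The strongest declines were those of IFIT1 (log2 fold change -0.99, SE 0.198, edgeR adjusted p = 1.352e-05) and OASL (log2 fold change -0.97, SE 0.237, edgeR adjusted p = 0.000525). CMPK2 followed at -0.84 (SE 0.187, edgeR adjusted p = 0.000113), IFIT3 at -0.78 (SE 0.141, edgeR adjusted p = 1.17e-06) and IFI44 at -0.67 (SE 0.115, edgeR adjusted p = 1.817e-07). In each of these 5 genes the 48 h library was below the 24 h library under both siRNAs. BST2 went the other way, with a log2 fold change of 0.67 (SE 0.238, edgeR adjusted p = 0.0219) and its 48 h value above its 24 h value under both siRNAs. CMPK2 had nearly the same level under both siRNAs at each time, and it passed the time test but not the siRNA test. IFI6, IFI44L and OAS1, which fell with the FAT4 siRNA, had time log2 fold changes of -0.04, 0.00 and -0.12 and did not pass the time test.

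Within each siRNA the time course looked less alike. Under the FAT4 siRNA, the counting interval of the ratio of 48 h over 24 h lay below 1 for 12 genes, where 21.9% of all genes did, and above 1 for 8, where 31.7% did. Under the control siRNA it lay below 1 for 19 genes, where 22.5% of all genes did, and above 1 for 1, where 33.4% did. The median log2 time ratio was -0.14 under the FAT4 siRNA and -0.31 under the control siRNA. With 1 library per siRNA and time this difference was not tested.

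**Figure D4:**
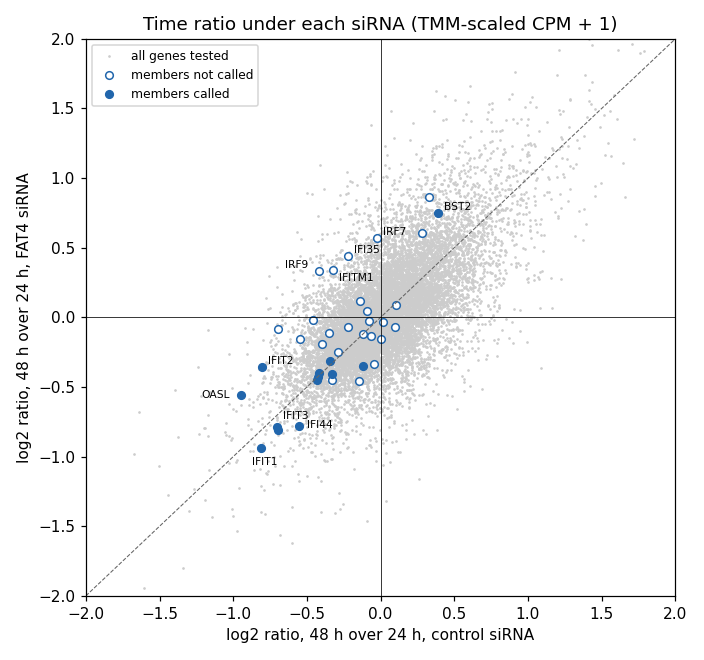
Log2 ratio of 48 h over 24 h (TMM-scaled CPM plus 1) under the FAT4 siRNA (y axis) against that under the control siRNA (x axis), with all genes tested in grey, the 38 interferon-stimulated genes in blue and those called in the time comparison filled. IFIT1, IFIT3 and IFI44 lie low on both axes, while IRF9, IFITM1 and IFI35 lie above 0 under the FAT4 siRNA and below 0 under the control siRNA. Of all genes tested, 35 lie beyond 2 on an axis and are not drawn.

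Some genes had unlike siRNA ratios at the 2 times. The log2 ratio at 48 h minus that at 24 h had a counting interval above 0 for 7 of the 38 genes, where 17% of all genes did, a share near the background. These were IRF9 (0.79), IFI35 (0.75), IFITM1 (0.70), IRF7 (0.67), IFIT2 (0.47), STAT2 (0.27) and LGALS3BP (0.16). The interval lay below 0 for 2 of the 38 genes, OAS3 (-0.23) and IFI44 (-0.24), a smaller share than the 16.4% of all genes. For IRF9 the ratio of FAT4 siRNA over control was 0.840 at 48 h (counting interval 0.717 to 0.983) and 0.485 at 24 h (0.411 to 0.570). For OAS3 it was 0.606 at 48 h (0.571 to 0.643) and 0.710 at 24 h (0.672 to 0.749). IRF9 was thus nearer to its control at 48 h and OAS3 further from it. IFI35 lay below its control at 24 h and above it at 48 h. These differences between the times were not tested.

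The interferon genes themselves had hardly any reads. Of the 10 on the list, 9 (IFNA1, IFNA2, IFNB1, IFNE, IFNK, IFNW1, IFNG, IFNL2 and IFNL3) had 0 counts in all 4 libraries, and IFNL1 had 1 count in the control library of 24 h. A count of 0 allows a level of up to 0.133 to 0.197 CPM, depending on the library.

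The receptor and kinase genes upstream of ISGF3 were expressed and showed no common direction, with 2 of 11 lower and 1 higher, near the 14.1% and 11.9% of all genes. TYK2, the kinase bound to IFNAR1, had 73.7 and 83.4 CPM in FAT4 siRNA cells at 48 h and 24 h, against 96.3 and 113 CPM in control cells (log2 fold change -0.42, edgeR adjusted p = 0.000297). IFNAR1, the first chain of the type I receptor, had 83.8 and 85.8 CPM in FAT4 siRNA cells against 69.5 and 59.1 CPM in control cells (log2 fold change 0.40, edgeR adjusted p = 0.000712). IFNLR1, the specific chain of the type III receptor, fell by 0.63 on the log2 scale (edgeR adjusted p = 0.0091). After the correction for GC content and length described below, TYK2 (log2 fold change -0.16, edgeR adjusted p = 0.179) and IFNLR1 (-0.49, edgeR adjusted p = 0.0794) no longer passed, and IFNAR1 did (0.39, edgeR adjusted p = 0.00331). JAK1 and IFNAR2 had log2 fold changes of -0.05 (edgeR adjusted p = 0.725) and 0.00 (edgeR adjusted p = 0.986).

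Among 14 genes that restrain the pathway, 2 fell and 1 rose, near the 14.1% and 11.9% of all genes. SOCS2 had a log2 fold change of -0.81 (edgeR adjusted p = 0.0196) and PIAS2 of -0.30 (edgeR adjusted p = 0.0481). SOCS3, an inhibitor of the JAK kinases, had 5.56 and 8.46 CPM in FAT4 siRNA cells at 48 h and 24 h, against 3.68 and 5.64 CPM in control cells (log2 fold change 0.59, edgeR adjusted p = 0.0297). The other 11, with SOCS1, PIAS1, PTPN2 and PTPN11 among them, did not pass the test.

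A wider list of 45 interferon-responsive genes outside the 40 did not show the same shift. Of 40 tested, 8 were lower, 5 were higher (14.1% and 11.9% of all genes) and the median log2 fold change was -0.08. The lower ones included DDX60 (-0.88), a helicase-like antiviral protein, the GTPase GBP1 (-0.82), TRIM14 (-0.71) and PARP10 (-0.68), and the higher ones included TRIM5 (0.51), the retrovirus restriction factor. DDX60 had 5.31 and 6.70 CPM in FAT4 siRNA cells at 48 h and 24 h, against 11.98 and 10.1 CPM in control cells. TRIM5 had 36.0 and 38.0 CPM in FAT4 siRNA cells against 23.4 and 28.8 CPM in control cells. The genes on the wider list thus split between both directions, and the difference between the lists was not tested.

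Base composition moved with the siRNA comparison over all genes. The median log2 fold change of all genes tested was 0.14 in the lowest of 4 equal bins of transcript GC content and -0.19 in the highest. Of the 38 genes, 8 lay in the lowest bin, with a median of -0.89 and 6 lower, and 6 lay in the highest bin, with a median of -0.47 and 3 lower. After a correction for GC content and length, 20 of the 38 were lower, where 9.18% of all genes were, IRF7 and LGALS3BP no longer passed, and the median was -0.44 against 0.04 over all genes. The 3′ UTRs of 8 of the 38 hold one of the words TTGGACT or TGGACTA, which earlier work on these counts had tied to the siRNA ratio, against 1713 of 12166 genes. Without those 8 genes, 17 were lower and the median was -0.56. The part of base composition and of these words in the lower values was not tested beyond that.

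**Figure D5:**
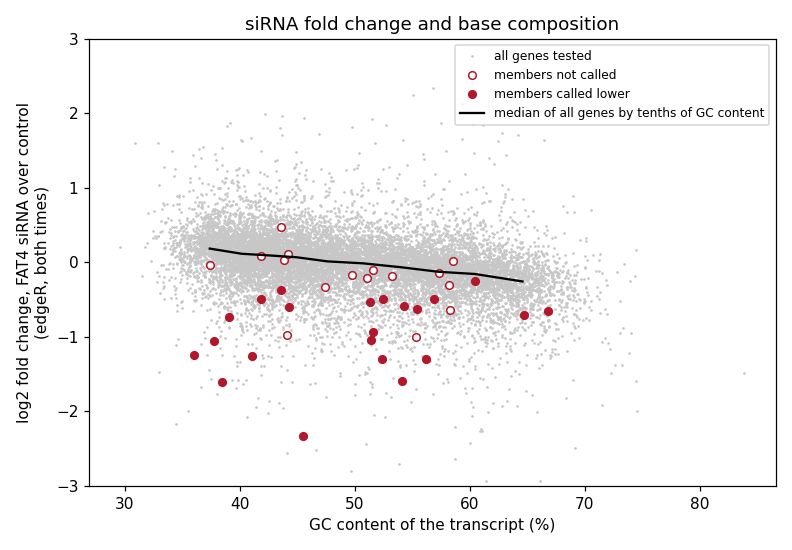
Log2 fold change of FAT4 siRNA over control (y axis) against the GC content of the transcript (x axis, percent) for all genes tested in grey, the interferon-stimulated genes in red and the running median of all genes over bins of GC content as a line. The line declines with GC content, and the interferon-stimulated genes called lower lie below it at both ends.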

How the data were processed

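Per the labels' protocols, TRIzol was used for the RNA and a stranded mRNA kit for the libraries. The authors deposited raw counts of reads per gene (whole numbers), with 1 library per file. HTSeq, SAMtools, TopHat2 and CASAVA 1.8.2 were used with the build hg19, per the submitters' processing notes. Annotation, counting mode and strand setting: not given in the sources used here, so counts of overlapping, antisense or near-identical genes are uncertain. Each file held 5 counter entries that name no gene, which stayed out of all sums. Reads outside genes were 19.48% to 20.54% of assignable reads, and reads on more than 1 gene 0.772% to 0.804%. For each 100 gene reads there were 54.59 to 55.98 alignments that were not unique.

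These counts were scaled by TMM (factors 0.9727 to 1.026) and fitted with edgeR 4.0.16 (R 4.3.3) on the 13712 genes that passed filterByExpr (minimum count 10, total 15). The model was additive in siRNA and time and used the 4 libraries. With 1 residual degree of freedom and infinite prior degrees of freedom, 1 dispersion trend served all genes (common biological coefficient of variation 0.0737). CPM are TMM-scaled. Log2 ratios at a single time use TMM-scaled CPM plus 1, which understates changes of low genes. Counting intervals are exact 95% Clopper-Pearson intervals of plain CPM ratios. The interval of a difference of 2 log2 ratios covers counting error as well.

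DESeq2 1.42.0, other scalings and filters, a fold threshold, each library left out and a correction for GC content and length (natural splines with 5 and 4 degrees of freedom as offsets) were alternatives. Lengths, GC content and UTRs came from GENCODE release 29, by the transcript with the longest coding sequence, for 95.5% of tested genes, and no coordinates were taken from it. Promoters and their coordinates are those of RefSeq on GRCh38.p14, not of hg19. The fit was tested on simulated data. The 40 genes, the pathway lists and the UTR words were chosen with earlier results of these data known. IFNL1, IFNL2, IFNL3, IFNLR1 and HELZ2 were matched by older symbols. Full statistics are given for the 12 genes called with the largest siRNA change, the 4 most abundant and the 6 called with the largest time change. From each pathway list up to 4 called genes are named, with JAK1, TYK2, IFNAR1 and IFNAR2 in any case. Some of what this rule would name is not reported here.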

Additional observations from a re-analysis of the deposited data

Results flagged for a closer look

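For 3 genes the libraries of 1 group moved opposite to those of the other, beyond the counting intervals, and with 1 library per siRNA and time none of these differences was tested. IFI35, a partner of NMI, was above its control at 48 h (ratio of FAT4 siRNA over control 1.29, counting interval 1.02 to 1.62) and below it at 24 h (0.767, 0.599 to 0.976), a difference of log2 ratios of 0.75. IRF9 was higher at 48 h than at 24 h under the FAT4 siRNA (ratio 1.33, 1.10 to 1.61) and lower under the control siRNA (0.768, 0.676 to 0.873), a difference of 0.79. IFITM1 did the same, with a ratio of 1.34 (1.14 to 1.57) under the FAT4 siRNA and 0.823 (0.733 to 0.923) under the control siRNA, a difference of 0.70.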

How the results depend on the processing

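No paired analysis was possible because each siRNA and time has 1 library, so the groups share fewer than 2 replicate numbers, and time is already a term of the fit. The count of 22 genes past the siRNA test stayed within 1.5 times under the other scalings, without a low count filter, at a mean of at least 5 CPM (16) and with the GC correction (20). It was 9 with DESeq2, 0 with siRNA as the only term (where no gene of the 13712 passed and 12 of the 38 had an unadjusted p under 0.05 on the lower side) and 0 to 3 with each library left out (3 to 18 unadjusted). The count of 13 genes past the time test was 5 with DESeq2, 0 with time as the only term (4 lower and 1 higher unadjusted), 7 at 1.5-fold or more and 0 to 4 with each library left out. Leaving out a library ranged the median siRNA log2 fold change from -0.67 to -0.40 and the median time log2 fold change from -0.61 to 0.0267. The value above 0, 0.0267, came without the control library of 24 h. OAS3 turned in time to 0.0428 without that library and to 0.0749 without the FAT4 siRNA library of 48 h. Fits without 1 library kept only the tested term, and a lone library was taken to vary like the others. Further alternatives were chosen after seeing the data (another ISRE spacing, genes of at least 5 CPM alone, intervals at both times), and all kept direction.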

Other observations

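Of 8 tested genes that respond to interferon gamma, CXCL11 and CXCL10, ligands of the receptor CXCR3, were lower with the FAT4 siRNA and WARS, a tryptophan tRNA synthetase, was higher. Of all genes tested, 14.1% were lower and 11.9% higher, and the small counts of this list were not tested against those shares. CXCL10 had 0.640 and 0.744 CPM in FAT4 siRNA cells at 48 h and 24 h, against 2.98 and 1.25 CPM in control cells (log2 fold change -1.56, edgeR adjusted p = 0.00174). CXCL11 had 0.320 and 0.271 CPM in FAT4 siRNA cells against 2.14 and 0.627 CPM in control cells (log2 fold change -2.16, edgeR adjusted p = 0.00121). In both chemokines the control library of 48 h stood highest, with 60 counts of CXCL10 and 43 of CXCL11. At 24 h the counting intervals of the ratio spanned 1 (0.263 to 1.21 for CXCL10 and 0.102 to 1.35 for CXCL11), and DESeq2 gave neither gene an adjusted p.

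Of 10 tested targets of NF-kB, 6 passed the time test on the higher side, where 13.8% of all genes did, and none on the lower side, with a median log2 fold change of 0.95. DESeq2 called 1 of the 6, NFKB2, with adjusted p between 0.112 and 0.347 for the other 5. NFKB2, the precursor of p52, had 34.8 and 13.2 CPM in FAT4 siRNA cells at 48 h and 24 h, against 25.6 and 15.6 CPM in control cells, with a time log2 fold change of 1.04 (edgeR adjusted p = 8.54e-12). In the siRNA comparison TNFAIP2 (-1.88) and RELB (-0.60) were lower and IL8 (1.28), the neutrophil chemokine, was higher. Over all genes tested, 14.1% were lower and 11.9% higher in that comparison. RELB did not pass after the GC correction (edgeR adjusted p = 0.382).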
